A study of Mus musculus with 6 samples.

Results

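The 10 genes described here encode the T cell receptor complex and its proximal signalling machinery: the CD3 chains (Cd3d, Cd3e, Cd3g, Cd247), the surface receptors Cd2, Cd5 and Cd28, the kinases Lck and Zap70, and the adaptor Lat. They were the rows of a deposited table of 34652 genes with these symbols, and all 10 were found. The symbols were chosen because T cell genes were already known to be higher in one group of these libraries, so the differences between groups given for these 10 genes are a description and carry no test.

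The data were 6 bulk RNA libraries of macrophages sorted from the cerebrospinal fluid of Cx3cr1CreER:mTmG mice, 12 days after inoculation of LLC-LeptoM cells in a model of leptomeningeal metastasis, the spread of tumor to the membranes around the brain. All mice had received tamoxifen, which turns on a Cre recombinase driven from Cx3cr1, a chemokine receptor gene of many macrophages, and so switches a membrane reporter to green (GFP). The 3 dLAM libraries, labelled resident macrophages, came from cells with CD45, CD11b, F4/80 and GFP and without Ly6C. The 3 Mono-MΦ libraries, labelled monocyte-macrophages, came from GFP- cells with CD45 and CD11b, those with F4/80 being mixed with those of low F4/80 that carried Ly6C. The comparison asks how the transcripts of resident macrophages differ from those of monocyte-derived ones in the same fluid. The sort rests on recombination at a Cx3cr1-driven Cre, so it separates cells by reporter history and surface antigens, and no T cell antigen was part of either gate. No label says that libraries of 1 group came from different mice. The p-values given here rest on the variation from library to library, which need not be that between mice.

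The T cell receptor itself has no signalling domain. It depends on the CD3 gamma, delta and epsilon chains and on the zeta chain encoded by Cd247, whose cytoplasmic tails hold immunoreceptor tyrosine-based activation motifs. Lck phosphorylates these tyrosines, Zap70 docks on them and phosphorylates the adaptor Lat, and Lat gathers the enzymes that raise calcium and activate Ras. Macrophages use a related chain of events downstream of Fc receptors and C-type lectins, with Syk in the place of Zap70 and Lyn and Fgr in the place of Lck.

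Levels are the deposited FPKM, a fragment count divided by the length of the gene and by the size of the library. From the steps between low values, libraries were estimated to hold 1.23e+07 to 1.7e+07 fragments, and 10281 to 11470 genes had at least 1 FPKM. Macrophage markers were present in both groups: Csf1r, the receptor for colony-stimulating factor 1, stood at 251 ± 28.9 FPKM in dLAM and 121 ± 23.0 in Mono-MΦ libraries, and Cd68 at 140 ± 20.9 and 109 ± 26.2 (SD, n = 3). Itgam, which encodes the sort antigen CD11b, was low in both, at 2.13 ± 0.153 and 2.86 ± 0.257 FPKM. The other sort genes stood at 47.0 ± 0.551 and 53.7 ± 0.549 FPKM (Ptprc, CD45), 58.9 ± 12.2 and 38.1 ± 5.79 (Adgre1, F4/80), 13.6 ± 1.85 and 92.3 ± 28.2 (Ly6c2) and 27.4 ± 6.12 and 9.16 ± 3.80 (Cx3cr1), in dLAM and Mono-MΦ libraries in that order (SD, n = 3). Transcripts of the Y chromosome were higher in dLAM library 3 and Mono-MΦ library 2 than in the other 4 libraries, with Ddx3y at 10.1 and 10.6 FPKM against 1.56 to 2.68. The X-linked RNA Xist went the other way, at 10.5 and 10.6 FPKM in these libraries against 40.3 to 58.2. The libraries of a group thus differed in sex-linked RNA. These RNAs do not show whether the libraries also differed in their mix of cell types.

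All 10 genes were higher in each dLAM library than in every Mono-MΦ library. Over all 11317 genes tested, 29.3% were separated in this way and 16.9% in the other direction. These shares describe the contrast the genes were chosen on, and nothing is read from them. Of the 10 genes, 8 reached 1 FPKM in 3 libraries only through dLAM. Together the 10 genes summed to 181, 152 and 160 FPKM in dLAM libraries 1, 2 and 3, and to 4.45, 23.6 and 19.4 FPKM in Mono-MΦ libraries 1, 2 and 3. The dLAM libraries lay close to each other, while Mono-MΦ library 1 lay far below the other Mono-MΦ libraries. Ratios of group means ran from 6.25-fold for Cd28 to 18.0-fold for Cd247. Without Mono-MΦ library 2 the ratio was 48.9-fold for Zap70 in place of 12.7, 27.9 for Cd2 in place of 13.7, 21.4 for Lck in place of 10.5 and 20.6 for Lat in place of 9.22. Without Mono-MΦ library 3 that of Cd3d was 10.4 in place of 6.87, and no other left-out library moved a ratio by over 1.5 times. The median log2 fold change of the 10 genes, on the log2(FPKM + 1) scale, was 2.41, beside 0.06 over all genes tested. In bulk RNA, more cells of a type and more RNA per cell cannot be told apart.

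**Figure D1:**
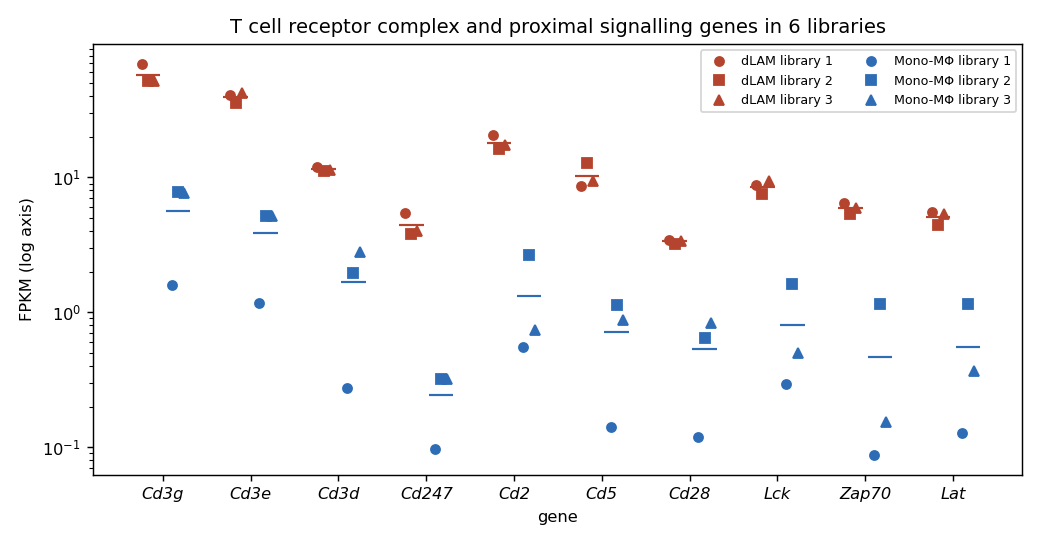
FPKM (log axis) of the 10 genes of the T cell receptor complex and its proximal signalling in 3 dLAM libraries (red) and 3 Mono-MΦ libraries (blue); each symbol is 1 library and each bar the mean of 3. Every dLAM symbol lies above every Mono-MΦ symbol of the same gene, and library 1 is the lowest Mono-MΦ symbol throughout.

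The CD3 chains carried most of the signal. Cd3g, the gamma chain, stood at 69.8, 52.1 and 51.8 FPKM in dLAM libraries 1 to 3 and at 1.59, 7.73 and 7.66 FPKM in Mono-MΦ libraries 1 to 3. Library 1 was far below the other Mono-MΦ libraries, which were nearly equal, and the lowest dLAM library was 6.71-fold above the highest Mono-MΦ library. The log2 fold change of Cd3g, dLAM minus Mono-MΦ, was 3.33 (SE 0.45). Cd3e, the epsilon chain, which is part of both CD3 heterodimers, had 40.6, 35.3 and 42.5 FPKM in dLAM and 1.17, 5.20 and 5.15 FPKM in Mono-MΦ libraries. Its pattern over the libraries was close to that of Cd3g, with library 1 again the lowest of the Mono-MΦ libraries, and its log2 fold change was 3.21 (SE 0.38).

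Cd3d, the delta chain, had 12, 11.2 and 11.3 FPKM in dLAM libraries and 0.276, 1.94 and 2.80 FPKM in Mono-MΦ libraries. It was the steadiest of the CD3 genes within dLAM and spread 10.1-fold within Mono-MΦ, where library 3 was the highest. Its log2 fold change was 2.36 (SE 0.36). Cd247, the zeta chain, had 5.44, 3.78 and 4.01 FPKM in dLAM libraries and 0.0972, 0.318 and 0.320 FPKM in Mono-MΦ libraries, a log2 fold change of 2.11 (SE 0.16). These low values rest on few reads: with the exon length of the GENCODE M21 annotation, about 7.09, 23.9 and 29.0 fragments lay behind the Mono-MΦ values of Cd247, against 248 to 429 in the dLAM libraries. Pou2f1, another gene, overlaps the Cd247 locus, and no source states that counting used strand.

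Cd3g, Cd3d and Cd3e are neighbours within 40.1 kb of chromosome 9 (mm10). Cd3g (44969572 to 44980431, minus strand) and Cd3d (44981786 to 44987339, plus strand) are transcribed away from each other from starts 1355 bases apart, and Cd3e (44998740 to 45009627, minus strand) lies beyond Cd3d. Cd247 is on chromosome 1 (165788681 to 165877277, plus strand). For these chains of 1 complex, the windows around their annotated starts are shown, from 250 bases before to 50 after the start, from the RefSeq table of build GRCm38.p6. They are written 5′ to 3′ on the strand of the gene. Capitals mark AGGAAG (the core of many ETS factor sites), TGTGGT (RUNX factors) and CAGGTG (E-box factors), on either strand:
Cd3g (chr9:44980382-44980681, minus strand): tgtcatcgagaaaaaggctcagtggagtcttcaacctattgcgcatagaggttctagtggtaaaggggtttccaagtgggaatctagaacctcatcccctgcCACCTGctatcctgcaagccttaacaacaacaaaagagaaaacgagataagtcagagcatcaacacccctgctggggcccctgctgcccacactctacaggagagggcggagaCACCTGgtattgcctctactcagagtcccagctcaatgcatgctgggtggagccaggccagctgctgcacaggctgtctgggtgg
Cd3d (chr9:44981536-44981835, plus strand): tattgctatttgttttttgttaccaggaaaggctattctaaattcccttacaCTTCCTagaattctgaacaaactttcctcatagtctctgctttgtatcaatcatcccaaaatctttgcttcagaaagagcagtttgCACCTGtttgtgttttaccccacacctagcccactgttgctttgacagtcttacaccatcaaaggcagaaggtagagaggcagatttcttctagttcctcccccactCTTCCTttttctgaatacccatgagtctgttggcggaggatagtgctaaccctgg
Cd3e (chr9:45009562-45009861, minus strand): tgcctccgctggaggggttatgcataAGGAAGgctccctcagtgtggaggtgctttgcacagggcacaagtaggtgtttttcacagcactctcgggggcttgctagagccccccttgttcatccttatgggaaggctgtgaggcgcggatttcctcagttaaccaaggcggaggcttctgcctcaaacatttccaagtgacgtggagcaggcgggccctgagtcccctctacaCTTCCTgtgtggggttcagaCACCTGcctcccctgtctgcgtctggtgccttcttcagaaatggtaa
Cd247 (chr1:165788431-165788730, plus strand): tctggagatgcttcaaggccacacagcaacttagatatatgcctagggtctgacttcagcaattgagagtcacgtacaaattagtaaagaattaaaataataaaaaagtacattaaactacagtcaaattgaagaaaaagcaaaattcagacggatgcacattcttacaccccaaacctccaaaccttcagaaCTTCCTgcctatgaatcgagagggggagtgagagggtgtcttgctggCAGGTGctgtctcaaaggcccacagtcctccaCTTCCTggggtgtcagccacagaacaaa
The E-box letters stood 2 times in the Cd3g window and 1 time in each of the other 3, and the ETS letters stood 2 times in the Cd3d, Cd3e and Cd247 windows and in the Cd3g window not at all. The table held 11 windows for 8 of the 10 genes (all but Cd2 and Cd28). CAGGTG or its reverse complement occurred in 9 of these 11 windows and in 20.2% of all 32851 windows of the table. AGGAAG occurred in 9 of 11 and in 35.4% of all windows, TGTGGT in 3 of 11 and in 16.8%, AGATAA, letters of factors of the Gata family, in 1 of 11 and in 11.2%. The core promoter letters TATAAA occurred in 0 of 11 and in 13.6%. Each motif was searched on both strands and on its own, so that matches of different motifs may overlap. A match is a description of the letters and not evidence that a factor binds there.

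The surface receptors that tune T cell activation followed. Cd2, the adhesion receptor that binds CD48 on partner cells, had 20.5, 16.1 and 17.4 FPKM in dLAM libraries and 0.552, 2.66 and 0.740 FPKM in Mono-MΦ libraries. Here library 2 stood 3.60-fold above library 3 within Mono-MΦ, unlike Cd3e and Cd3g, whose values in these libraries were nearly equal. The log2 fold change of Cd2 was 3.14 (SE 0.31). Cd5, an inhibitory scavenger receptor family member of T cells and of B-1 cells, had 8.66, 12.8 and 9.38 FPKM in dLAM and 0.141, 1.13 and 0.880 FPKM in Mono-MΦ libraries, with a log2 fold change of 2.75 (SE 0.26). Among the 10 genes it was the 1 that was highest in dLAM library 2. Cd28, the receptor for the costimulatory ligands CD80 and CD86, was the lowest of the 10 genes in dLAM, with 3.41, 3.23 and 3.40 FPKM, and had 0.118, 0.649 and 0.839 FPKM in Mono-MΦ libraries. Its log2 fold change was 1.53 (SE 0.20).

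The kinases and the adaptor came next. Lck, the Src family kinase that starts receptor signalling, had 8.73, 7.47 and 9.37 FPKM in dLAM and 0.295, 1.63 and 0.5 FPKM in Mono-MΦ libraries (log2 fold change 2.46, SE 0.26). Zap70, the kinase that docks on phosphorylated CD3 tails, had 6.43, 5.37 and 5.90 FPKM in dLAM and 0.0871, 1.15 and 0.154 FPKM in Mono-MΦ libraries (log2 fold change 2.31, SE 0.26). The Zap70 values of Mono-MΦ libraries 1 and 3 correspond to about 3.57 and 7.85 fragments, that of library 2 to about 48.6. Lat, the adaptor that Zap70 phosphorylates, which mast cells and platelets also use, had 5.55, 4.41 and 5.31 FPKM in dLAM and 0.128, 1.16 and 0.366 FPKM in Mono-MΦ libraries (log2 fold change 2.02, SE 0.24). In all 3 genes library 2 was the highest Mono-MΦ library by at least 3.18-fold over library 3, and the dLAM libraries spread by at most 1.26-fold.

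Lck has a pair of annotated start regions on chromosome 4 (gene 129548344 to 129573641, minus strand) and Zap70 3 on chromosome 1 (gene 36761798 to 36782818, plus strand), so a level per gene does not say which start was used. The windows of their most upstream starts are shown in the same way because both genes parted Mono-MΦ libraries 2 and 3, as described next:
Lck (chr4:129573592-129573891, minus strand): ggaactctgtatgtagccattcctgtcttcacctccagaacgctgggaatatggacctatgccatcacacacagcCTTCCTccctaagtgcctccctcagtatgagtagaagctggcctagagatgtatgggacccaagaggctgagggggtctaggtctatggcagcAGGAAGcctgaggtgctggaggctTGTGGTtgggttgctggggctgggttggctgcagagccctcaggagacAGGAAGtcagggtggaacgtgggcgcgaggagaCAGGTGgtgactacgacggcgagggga
Zap70 (chr1:36761548-36761847, plus strand): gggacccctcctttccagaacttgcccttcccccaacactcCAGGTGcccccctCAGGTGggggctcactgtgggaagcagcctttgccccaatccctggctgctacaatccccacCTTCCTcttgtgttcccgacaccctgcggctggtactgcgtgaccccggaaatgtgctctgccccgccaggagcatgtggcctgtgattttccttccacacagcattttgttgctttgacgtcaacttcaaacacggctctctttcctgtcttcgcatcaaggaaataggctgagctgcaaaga
The Lck window held 3 ETS, 1 RUNX and 1 E-box match and the Zap70 window 1 ETS and 2 E-box matches.

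Within the Mono-MΦ libraries the 10 genes did not all vary together. Library 1 was the lowest for 10 of 10 genes, where 37.2% of all genes tested had their lowest Mono-MΦ value in that library. Libraries 2 and 3 had nearly the same level of Cd3e, Cd3g and Cd247, with ratios of 1.01, 1.01 and 0.995 (library 2 over library 3). Library 3 was higher in Cd3d and Cd28, with ratios of 0.692 and 0.774. Library 2 was higher in Cd5 (1.29), Lat (3.18), Lck (3.27), Cd2 (3.60) and Zap70 (7.48). Among the antigen receptor genes themselves, Trac had a ratio of 0.905 and Trbc2 of 3.26, and the coreceptor gene Cd4 of 2.76. Relative to the mean of the dLAM libraries, Mono-MΦ library 3 thus held 13.2% of the Cd3g level and 2.61% of the Zap70 level, while library 2 held 13.3% and 19.6%. Mono-MΦ library 2 is also the one with more Y-linked RNA, and its part in this pattern was not tested. Neutrophil markers, summed over 6 genes, stood at 1138, 3936 and 6712 FPKM in Mono-MΦ libraries 1 to 3, and their part was not tested either.

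**Figure D2:**
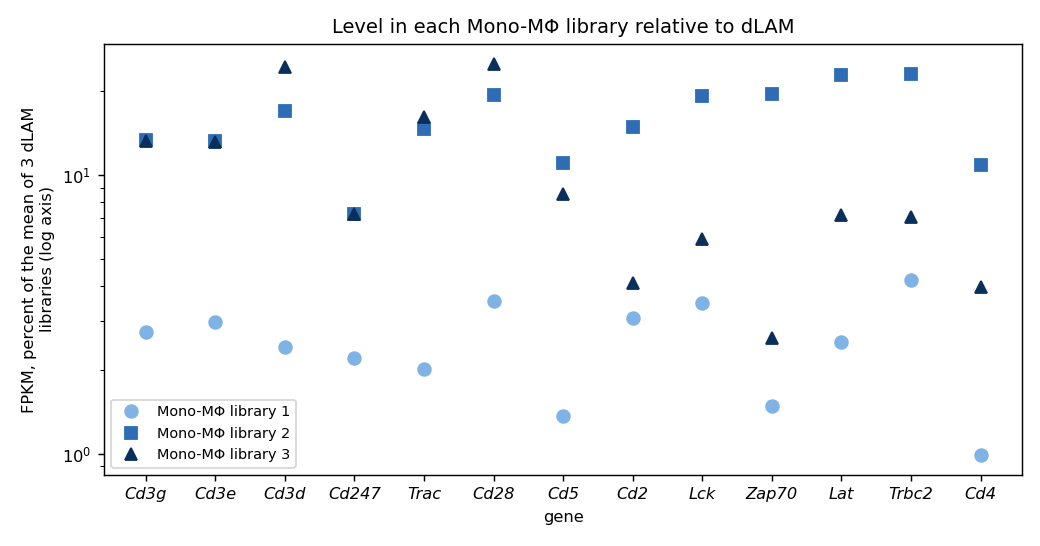
FPKM of the 10 receptor complex genes and of Trac, Trbc2 and Cd4 in each of the 3 Mono-MΦ libraries, as a percent of the mean of 3 dLAM libraries (log axis); each symbol is 1 library. Libraries 2 and 3 coincide for Cd3g, Cd3e and Cd247 and part for Cd2, Lck, Zap70, Lat, Trbc2 and Cd4, and library 1 is the lowest symbol for each gene shown.

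In dLAM libraries the order of levels per length was Cd3g (57.9 ± 10.3 FPKM), Cd3e (39.4 ± 3.75), Cd2 (18.0 ± 2.24), Cd3d (11.5 ± 0.427), Cd5 (10.3 ± 2.22), Lck (8.52 ± 0.968), Zap70 (5.90 ± 0.532), Lat (5.09 ± 0.600), Cd247 (4.41 ± 0.899) and Cd28 (3.35 ± 0.103) (SD, n = 3). The ranges of neighbours in this order were separate except for Cd3d with Cd5, Cd5 with Lck, Zap70 with Lat and Lat with Cd247. In Mono-MΦ libraries Cd3g (5.66 ± 3.52 FPKM) and Cd3e (3.84 ± 2.31) again led, Cd247 had the lowest mean (0.245 ± 0.128) although Zap70 was above it in 1 library only, and the ranges of every pair of neighbours overlapped. As a share of the summed level of the 10 genes, Cd3g made up 35.1% ± 3.18 in dLAM and 36.0% ± 3.35 in Mono-MΦ libraries (SD, n = 3), and Cd3e 24.0% ± 2.16 and 25.0% ± 2.52. For 8 of the 10 genes the shares overlapped between the groups. Cd247 had a larger share in every dLAM library (2.67% ± 0.294 against 1.73% ± 0.422) and Cd28 a smaller one (2.05% ± 0.138 against 3.25% ± 0.935). The level of Cd247 relative to Cd3e was 0.134, 0.107 and 0.0944 in dLAM libraries and 0.0831, 0.0612 and 0.0621 in Mono-MΦ libraries. Lck stood at 1.36, 1.39 and 1.59 times the level of Zap70 in dLAM libraries and at 3.39, 1.42 and 3.24 times in Mono-MΦ libraries, where the ratio for libraries 1 and 3 rests on the few Zap70 fragments given above. These ratios compare groups the genes were chosen on and are not tested.

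Genes that T cells use around the receptor were tested in limma over all 11317 genes, of which 19.9% were higher and 10.6% lower in dLAM at an adjusted p under 0.05. These were 2249 higher and 1204 lower genes as deposited, 1798 and 1664 with median-of-ratios scaling, and 780 lower genes without dLAM library 2. When a dLAM library was left out and the filter was applied again, 1001 to 1094 genes were higher and 711 to 852 lower. The list of T cell signalling partners held 16 genes, of which 13 passed the filter of 1 FPKM in 3 libraries. Of these, 12 were higher and 0 lower. Of the 13, 11 passed the filter only through the dLAM libraries, and of all genes that did so 67.3% were called higher. This and the other T cell lists were chosen when T cell genes were known to be higher in dLAM, so their calls are no independent evidence of a direction. The median log2 fold change of the list was 1.60. When dLAM library 1, 2 or 3 was left out and the filter was applied again, fewer genes could be tested and 6, 7 and 7 were higher. Grap2, the adaptor GADS that links Lat to SLP-76, was higher at 9.82 ± 1.66 against 1.07 ± 0.389 FPKM (SD, n = 3). Its log2 fold change was 2.39, with an SE of 0.19. Sh2d2a, an adaptor that binds Lck, was higher by 2.15, and Cd6, a receptor related to Cd5, by 2.13. Tespa1, which takes part in calcium signalling after receptor engagement in thymocytes, was higher by 1.94. Ptpn22, a phosphatase that acts on Lck and Zap70 and is also present in myeloid cells, had 12 ± 1.88 against 12.7 ± 1.96 FPKM (SD, n = 3) and did not pass (log2 fold change -0.07, adjusted p = 0.78).

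Of 33 signalling genes that macrophages share with T cells, all were tested, and 7 were higher and 5 lower in dLAM. Of these genes, 31 had 1 FPKM or more in all 6 libraries, with 5 higher and 5 lower, where 15.3% of all such genes were higher and 11.4% lower. The counts of the list lay near these shares and are no result about it as a group. The median log2 fold change of this list was -0.06, beside 0.06 over all genes tested. The transcription factor gene Nfatc2 was higher by 1.93, Plcg1, the phospholipase that binds Lat, by 1.60, and Fyn, a further Src family kinase of T cells, by 1.57. Those lower in dLAM included the kinases that stand in for Lck and Zap70 in myeloid cells. Fgr fell by 0.64 and Lyn by 0.62 on the log2 scale. Plcg2, the phospholipase of myeloid and B cells, fell by 0.52, and Syk by 0.45, at 37.3 ± 0.573 against 51.4 ± 4.80 FPKM (SD, n = 3; adjusted p = 0.012). The adaptor genes Tyrobp and Fcer1g, which carry activation motifs for myeloid receptors as CD3 does for T cells, stood at -0.37 (adjusted p = 0.078) and -0.23 (adjusted p = 0.25) on the log2 scale. The number of lower genes depended on the scaling, with 10 under median-of-ratios scaling, 8 under quantile normalization and 3 on the TPM scale. The calls of Fgr and Syk were lost when only the 4 libraries low in Y-linked RNA were used (2 lower genes), at log2 fold changes of -0.53 and -0.40, and that of Syk on the TPM scale, at -0.41. Leaving out dLAM library 1, 2 or 3 with the filter applied again gave 2, 3 and 2 lower genes, with Syk called in none of these 3 fits and Plcg2 not without library 1 or 3.

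The coreceptors and costimulatory receptors were mostly higher. Of 16 genes, all tested and 14 of them only through the dLAM libraries, 15 were higher and 0 lower. Their median log2 fold change was 1.97. Leaving out dLAM library 1, 2 or 3 and applying the filter again gave 8, 8 and 9 higher genes. With all 6 libraries, 19.9% of all genes tested were called higher, and 67.3% of those that passed the filter only through dLAM. Cd4, the coreceptor for MHC class II, had 21.2, 18.2 and 18.8 FPKM in dLAM libraries and 0.191, 2.12 and 0.77 FPKM in Mono-MΦ libraries (log2 fold change 3.44, SE 0.31). The inhibitory receptor genes Pdcd1, Tigit and Ctla4 were higher by 3.12, 3.03 and 2.72 on the log2 scale. Ly9, a SLAM family receptor gene that many leukocytes express, had 9.71 ± 2.68 against 5.58 ± 1.75 FPKM (SD, n = 3) and did not pass (adjusted p = 0.078), but it passed without dLAM library 3, with a log2 fold change of 0.93, and with a term for Y-linked RNA. The level of Cd8b1, a coreceptor chain for MHC class I, relative to Cd4 was 0.598, 0.331 and 0.606 in dLAM libraries and 5.92, 0.791 and 2.88 in Mono-MΦ libraries. So the Mono-MΦ libraries, and library 1 most, had more Cd8b1 per Cd4, at low levels of both.

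Of the constant genes of the antigen receptor, 7 of 10 names were in the table and 4 were tested. Trac, Trbc2 and Trbc1, which belong to the alpha and beta chains, were higher by 3.12, 2.95 and 2.20, and 0 were lower. Of the 4, Trac and Trbc1 had passed the filter only through the dLAM libraries, a class of genes of which 67.3% were called higher. The median of the 4 was 2.58. Leaving out dLAM library 3 and applying the filter again gave 2 higher genes, without Trbc1. Trac stood at 34.6 ± 4.97 against 3.78 ± 2.68 FPKM (SD, n = 3). Trbc1 was at 8.29, 7.59 and 13.2 FPKM in dLAM libraries and listed at 0, 1.74 and 3.23 in Mono-MΦ libraries, and its call was lost with a pseudocount of 0.1, at a log2 fold change of 3.48, and in the 4 libraries low in Y-linked RNA alone, at 2.12. Both beta genes are near-identical, so the split between them is uncertain. The gamma chain gene Tcrg-C1 had 1.46, 0.879 and 1.74 FPKM in dLAM libraries and was listed at 0, 1.0 and 0.381 FPKM in Mono-MΦ libraries. It did not pass (adjusted p = 0.077), though it did so without Mono-MΦ library 2 (log2 fold change 0.99) and with a term for Y-linked RNA. The delta chain gene Trdc reached at most 0.752 FPKM in any library and was not tested.

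Of 13 T cell transcription factor genes, 11 were tested, 7 of them only through the dLAM libraries, and 9 were higher and 0 lower, with a median log2 fold change of 1.48. After the filter was applied again without dLAM library 1, 2 or 3, 2 were higher in each case. With all 6 libraries, 19.9% of all genes tested were called higher, and 67.3% of those that passed the filter only through dLAM. Foxp3, the factor of regulatory T cells, had 5.57, 6.40 and 3.77 FPKM in dLAM libraries and was listed at 0, 0.202 and 0.0876 FPKM in Mono-MΦ libraries (log2 fold change 2.49, SE 0.19). Tbx21, the factor of type 1 helper cells and NK cells, was higher by 2.18, Tcf7 by 2.12 and Ets1 by 1.49. Zbtb7b, which directs CD4 lineage choice in the thymus and is also present in other cells, did not pass (log2 fold change -0.25, adjusted p = 0.15), nor did Satb1 (0.02, adjusted p = 0.96). Without Mono-MΦ library 3, Zbtb7b was called lower, with a log2 fold change of -0.36.

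**Figure D3:**
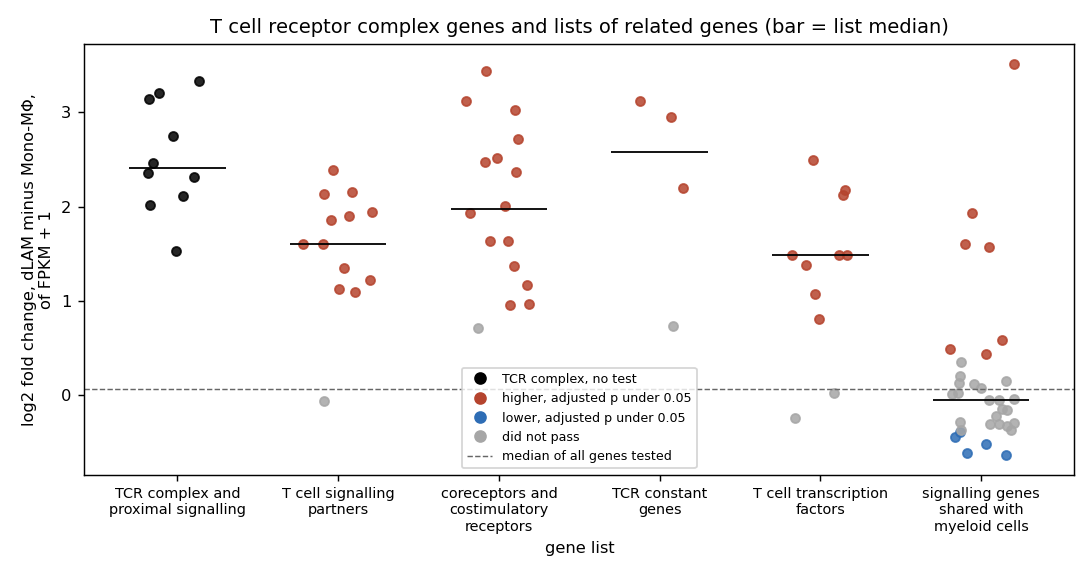
Log2 fold change, dLAM minus Mono-MΦ, of FPKM + 1 for the 10 genes of the receptor complex (black, no test) and for tested genes of 5 lists, coloured by the limma call; each point is 1 gene, bars are list medians and the dashed line is the median of all genes tested, 0.06. The 4 lists of T cell genes lie mostly above 1, while the list shared with myeloid cells has its median at -0.06.

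Most tested genes of other lymphocytes and of mast and dendritic cells were higher in the same dLAM libraries. Many of those tested had passed the filter only through dLAM (4 of 6 for NK cells, 3 of 4 for innate lymphoid cells, 4 of 5 for B and plasma cells, 5 of 6 for mast cells and basophils, 6 of 8 for dendritic cells and 2 of 3 for carcinoma cells), and 67.3% of all genes that did so were called higher. The NK cell list of 10 genes summed to between 25.5 and 39.0 FPKM in dLAM and between 4.01 and 8.67 FPKM in Mono-MΦ libraries, with 6 of 6 tested genes higher and the defining gene Ncr1 at 0 in Mono-MΦ library 1. NK cells also express Cd247, Cd2, Lck, Zap70 and Lat. The list of innate lymphoid cells (7 genes, 30.1 to 36.4 against 4.29 to 8.02 FPKM) had 4 of 4 tested genes higher, and its defining gene Il1rl1 stood at 2.18 to 3.4 FPKM in dLAM and 0.0637 to 0.231 FPKM in Mono-MΦ libraries. The B and plasma cell list (8 genes) summed to 216 to 862 against 13.8 to 67.9 FPKM, with 5 of 5 tested genes higher. Its defining genes Ms4a1 and Pax5 were at most at 0.97 FPKM in dLAM and listed at 0 in 2 Mono-MΦ libraries. The mast cell and basophil list (10 genes, 54.1 to 98.8 against 6.67 to 16.0 FPKM) had 5 of 6 tested genes higher. Its defining gene Cpa3 was at 0 in each Mono-MΦ library. The other defining gene, Ms4a2, was low and overlapped, at 0.297 ± 0.188 against 0.305 ± 0.166 FPKM (SD, n = 3), and was not tested. Hdc was tested and did not pass, at 8.44 ± 3.29 against 9.85 ± 4.07 FPKM (SD, n = 3). The dendritic cell list (8 genes, 91.1 to 153 against 12.9 to 16.4 FPKM) had 7 of 8 tested genes higher, with Xcr1 at 0 in 2 Mono-MΦ libraries. Platelet markers (7 genes, 41.0 to 56.4 against 2.93 to 15.1 FPKM) had 1 of 2 tested genes higher, Pf4, which macrophages also express, while the defining genes Gp9 and Itga2b stayed at or under 0.69 FPKM. The carcinoma list (5 genes, 27.0 to 31.6 against 1.99 to 3.18 FPKM) had 3 of 3 tested genes higher. Among them were Cdh1 and Epcam, which some dendritic cells express as well. Cdh1 made up most of the dLAM sums, at 21.6 ± 0.552 FPKM (SD, n = 3). Krt7, untested, was lower in every dLAM than in every Mono-MΦ library, at 0.164 ± 0.0614 against 0.305 ± 0.0875 FPKM. Krt8, also untested, overlapped at low values, at 0.194 ± 0.261 against 0.0536 ± 0.0619 FPKM. The part of each of these cell types in the levels of the 10 genes was not tested. Macrophage genes (8 genes) summed to 4039 to 5630 FPKM in dLAM and 6852 to 10322 FPKM in Mono-MΦ libraries, of which Lyz2 made up most, with 5 of 8 higher and 1 lower.

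**Figure D4:**
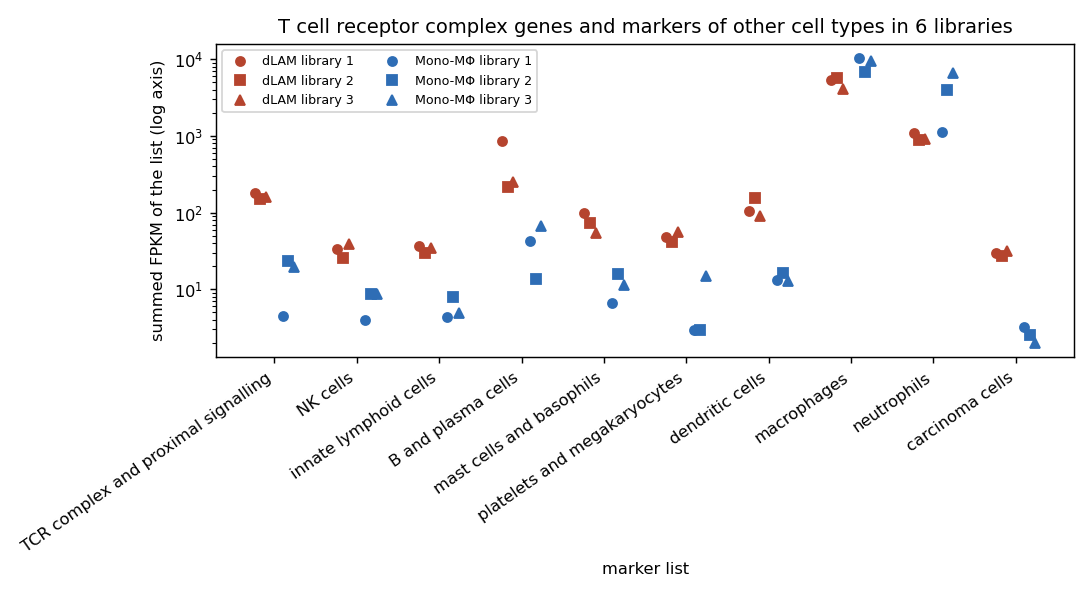
Summed FPKM (log axis) of the 10 receptor complex genes and of 9 marker lists in each library; each symbol is 1 library, red for dLAM and blue for Mono-MΦ. The receptor complex genes, at 152 to 181 FPKM in dLAM, lie far below the macrophage list, at 4039 to 5630 FPKM, and the lymphocyte, mast cell and dendritic cell lists share their direction.

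The genes whose pattern over the 6 libraries was most like the mean of the 10 genes were found by the root mean square difference of centred log2(FPKM + 1) values among genes tested. Gimap3 was the nearest, with a difference of 0.0344 and with 11.5, 9.46 and 10.4 FPKM in dLAM and 0.337, 1.63 and 1.14 FPKM in Mono-MΦ libraries. It was nearer to the mean than any of the 10 genes themselves, the nearest of which were Lck at 0.185 and Zap70 at 0.233. Gm4951, Gimap6, Ppp1r16b and Nrgn followed at 0.146, 0.186, 0.198 and 0.204. Pdcd1lg2, Ctla4, Tnfrsf18, Cxcr6 and Tnfrsf9 had differences of 0.207, 0.210, 0.228, 0.228 and 0.229. Cd28 and Cd3g were the members farthest from their own mean, at 0.520 and 0.513. On this log2(FPKM + 1) scale Cd28 had a smaller and Cd3g a larger difference between groups. The scale understates changes of low genes, so the distance depends in part on the level of a gene. In ratios of group means Cd28 was the lowest, at 6.25-fold, while Cd3g, at 10.2-fold, lay below Cd247, at 18.0-fold.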

How the data were processed

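Bulk RNA of 3 dLAM and 3 Mono-MΦ libraries was deposited by the authors as FPKM in 1 table, with 1 column per library. The sort, RNA isolation and sequencing of read pairs are per the labels' protocols. The tools FastQC, HISAT2 and featureCounts and the build mm10 come from the list in the submitters' processing notes. Versions, gene lengths, strand handling and the treatment of multiply mapped reads: not given in the sources used here, so overlapping genes and near-identical copies are uncertain. The design text speaks of 10 samples, of which 6 were analysed here. No 2 libraries held identical values.

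FPKM is not a count, so values were tested as log2(FPKM + 1) in limma 3.58.1 (R 4.3.3) with a mean-variance trend over 11317 genes with at least 1 FPKM in at least 3 of 6 libraries. The Benjamini-Hochberg adjustment covered all genes tested, with a threshold of 0.05. This scale understates changes of low genes. Fragments behind a value were estimated from the steps of low values and GENCODE M21 exon lengths, with 94.3% of symbols matched; they cover counting error only. The members and lists were chosen with earlier results of these data known, and the members' differences are not tested. Genes named from a list were the up to 4 largest and up to 4 lowest log2 fold changes among those called and the 2 highest levels among those not called, with the 10 nearest patterns. Alternatives were pseudocounts of 0.1 and 0.5, other filters (none, 5 FPKM) and scalings, a replicate block and leaving out each library; the settings on Y-linked RNA and the ratios of means without single libraries were added after seeing the data. In scalings and left-out libraries the tested genes were held fixed, which was decided after the counts with the filter applied again had been seen; both versions are reported. Some members of the lists are counted but not reported here by name. Tables and plots were made with pandas 2.3.3, numpy 2.4.6 and matplotlib 3.10.9 in Python 3.11.15.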

Additional observations from a re-analysis of the deposited data

How the results depend on the processing

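Each of the 10 genes of the receptor complex was higher in dLAM under every alternative that gave a value (157 values, log2 fold changes between 1.32 and 3.97). The genes were chosen on this contrast, and each dLAM value lay above each Mono-MΦ value of the same gene. Other pseudocounts, other filters and left-out libraries could therefore not reverse the direction, and these values are no further evidence for it. The median log2 fold change of the 10 genes was 2.41 as reported and 3.60 and 2.90 with pseudocounts of 0.1 and 0.5. It was 3.29 on the TPM scale, which raises the values against the pseudocount. Leaving out single libraries gave 2.19 to 2.69. With a filter of 5 FPKM fewer genes could be tested: 1247 of all genes were higher, with 3 T cell signalling partners, 8 coreceptors and costimulatory receptors and 3 transcription factors. Lower genes of the list shared with myeloid cells numbered 10 with median-of-ratios scaling, 8 with quantile normalization and 3 on the TPM scale, against 5. With only the 4 libraries low in Y-linked RNA, chosen after seeing the data and with fewer samples, 1480 genes were higher and 780 lower, 2 of them in that list. Lower genes overall ranged from 780 to 1220 without single libraries, and lower T cell transcription factors from 0 to 1. In these scalings and left-out libraries the 11317 tested genes were held fixed. At first the filter of 1 FPKM in 3 libraries had been applied again in each; the fixed set was chosen after those counts had been seen, and it leaves more calls in place, so both are given. With the filter applied again, leaving out dLAM library 1, 2 or 3 gave 1061, 1001 and 1094 higher and 764, 711 and 852 lower genes. Over all 6 left-out libraries the counts were 1001 to 2104 higher and 711 to 1157 lower genes, 6 to 12 higher T cell signalling partners, 8 to 15 coreceptors and costimulatory receptors, 2 to 3 constant genes, 2 to 9 transcription factors (0 to 1 lower), 2 to 7 lower genes shared with myeloid cells, and a median of 2.19 to 2.69 for the 10 genes. The low ends of these counts come from leaving out a dLAM library, when genes that had passed through the 3 dLAM libraries alone drop out of the test. The 4 libraries low in Y-linked RNA gave, with the filter applied again, 875 higher and 657 lower genes, 4 partners, 6 coreceptors and costimulatory receptors, 1 transcription factor, 1 lower shared gene and a median of 3.41. The scalings so treated gave 10 lower shared genes with median-of-ratios, 8 with quantile normalization and 3 on the TPM scale, with a median of 3.29 on the latter. No label says that the replicate numbers pair the libraries. Same-numbered libraries correlated in their deviations from the group means at 0.19, -0.15 and -0.09 across genes. The largest such value between the groups was 0.39, for dLAM library 3 and Mono-MΦ library 2, those with more Y-linked RNA. Deviations from a mean of 3 libraries depend on each other, so these values cannot decide whether libraries were paired. With a replicate block 1860 genes were higher and 999 lower, 12 of the T cell signalling partners were higher, and the median of the 10 genes stayed at 2.41. Depth limits the low Mono-MΦ values, some of which rest on under 10 fragments; the causes of these shifts were otherwise not tested.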
